A study of Mus musculus with 8 samples.

Results

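AP-1 is a family of transcription factors, and 10 of its genes were examined in tumor-associated macrophages (TAMs) of mice given thiostrepton or DMSO. They were taken by symbol, from a list drawn up with earlier results of these data known, and all 10 were among the 23413 genes of the deposited count table. The FOS subfamily gave 4 of them (Fos, Fosb, Fosl1 and Fosl2), the JUN subfamily 3 (Jun, Junb and Jund) and related basic leucine zipper (bZIP) genes 3 (Atf3, Batf and Maff). The TAMs came from B16F10 melanomas, a tumor line of the C57BL/6 (B6) strain, which had been grown under the skin of male B6 mice of 8 to 10 weeks. Each mouse was dosed 6 and 12 days after the tumor cells were injected, and on day 18 its TAMs were sorted by the gate CD45+F4/80+CD11b+Gr-1- for RNA-seq. Vehicle (DMSO) was given to 2 mice (DMSO1 and DMSO2), thiostrepton, a thiopeptide antibiotic, by I.P. injection to 4 mice (IP1 to IP4), and thiostrepton next to the tumor, under the skin, to 2 mice (IS1 and IS2). The dose of the IS mice was 20 mg/kg, while the dose of these IP mice and the route of these DMSO mice are not given in the sources used here. The study describes 20 mg/kg as lower than its I.P. doses. Route and dose therefore cannot be told apart between IP and IS mice.

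AP-1 proteins work as dimers that hold DNA through the basic region beside their leucine zippers. FOS proteins pair with JUN proteins and bind the site TGANTCA, dimers of JUN with ATF proteins favor the longer site TGACNTCA, and BATF and the small MAF proteins have no transactivation domain of their own. Fos, Fosb, Jun, Junb and Atf3 belong to the immediate-early genes, which MAP kinase signals switch on within minutes through proteins already bound at their promoters, and whose mRNAs decay fast. In macrophages AP-1 is best known for its part in the response to microbial products and cytokines, where it acts with NF-kB on inflammatory genes.

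The promoters of Fos, Fosb, Junb and Jun are shown because the first 3 of these genes moved together in these mice and the last moved less. Each line gives the 150 bases before the RefSeq start on GRCm38.p6, read along the gene, with capitals for any of the searched letters. The Fos stretch is chr12:85473740-85473889 on the + strand, and the other 3 are on the - strand, Fosb at chr7:19310046-19310195, Junb at chr8:84978749-84978898 and Jun at chr4:95052223-95052372.
Fos: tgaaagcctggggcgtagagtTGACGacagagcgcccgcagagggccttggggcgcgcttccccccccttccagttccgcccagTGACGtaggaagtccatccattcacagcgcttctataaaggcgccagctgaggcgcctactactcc
Fosb: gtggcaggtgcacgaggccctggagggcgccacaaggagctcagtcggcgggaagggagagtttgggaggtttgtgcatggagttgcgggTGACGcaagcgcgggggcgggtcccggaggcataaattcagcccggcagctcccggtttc
Junb: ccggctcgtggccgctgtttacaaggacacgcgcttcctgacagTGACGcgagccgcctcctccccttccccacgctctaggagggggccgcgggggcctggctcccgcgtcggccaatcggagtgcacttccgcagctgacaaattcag
Jun: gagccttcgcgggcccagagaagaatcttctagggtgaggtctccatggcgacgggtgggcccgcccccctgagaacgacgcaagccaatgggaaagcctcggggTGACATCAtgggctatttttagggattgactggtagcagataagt

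The letters searched, on both strands, were TGANTCA, the site of FOS and JUN dimers, TGACNTCA, the site favored by JUN and ATF dimers, TGACG, the first part of the cAMP response element, and the CArG box, the site of SRF. A TGACGTCA contains TGACG on either strand, so those matches overlap. RefSeq windows from 250 bases before to 50 after a start were at hand for 9 of the 10 members, as 11 windows, Maff having 3. Fosl1 had none. The windows follow RefSeq starts, and those of Fosl2, Jund and Atf3 are not at the ends of the GENCODE genes given below. Fos held TGACG at -129 to -125 and -66 to -62, Fosb at -60 to -56, Junb at -106 to -102 and Batf at -98 to -94, counted back from the start. Atf3 held it on the other strand at -7 to -3. Jun held TGACATCA at -45 to -38, and so did the third window of Maff, while the second window of Maff held TGACGTCA at -29 to -22 and the third also TGACG on the other strand at -122 to -118. Windows of Fosl2 and Jund held none of the letters, and no member's window held TGANTCA or a CArG box. Bases further than 250 before a start were not searched, so a site there, for Fos or any other member, would be missed. Among all 32851 mouse windows, TGACG was in 20.8%, TGACNTCA in 8.83%, TGANTCA in 7.81% and the CArG box in 1.63%. These matches describe letters in a window, not bound sites.

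The libraries held 14127506 to 17577466 counts, and values are library-scaled counts (CPM) after TMM scaling. A floor of 3 counts was 0.169 to 0.218 CPM and covers counting error only. The macrophage markers on a list of 11 were all detected in every mouse, with a summed level of 24809 to 38354 CPM, highest in IS1 and IS2. That sum was mostly Lyz2, at 21375 and 25046 CPM in IS1 and IS2, and the markers did not move together. In IS1, Lyz2, Cd68, C1qa and C1qb were above both DMSO mice, while Csf1r, Emr1, Itgam, Mrc1 and Fcgr1 were below both. Csf1r, for one, was at 353 CPM in IS1 and 1128 in IS2, against 767 and 732 in DMSO mice. Both IS libraries stood apart in one respect, as 0.525% and 0.364% of genes averaging 5 CPM or more had no count there, against 0.0107% to 0.129% elsewhere. Sample titles carry running numbers in the order IP1, IS1, IS2, DMSO1, DMSO2, IP2, IP3 and IP4, so that except for IP1 this order and the treatment cannot be told apart. In bulk RNA, fewer cells of a type and less RNA per cell cannot be told apart either.

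AP-1 mRNA was high in 3 mice, IP1, IS1 and IS2, and low in the other 5. These are also the first 3 in the running order of the sample titles. Their TMM factors were the lowest, at 0.936, 0.940 and 0.931 in IP1, IS1 and IS2, against 1.01 to 1.07 in the others. Whether that order or anything linked to it played a part was not tested. The members took 0.18% and 0.117% of all counts in DMSO1 and DMSO2, 0.547% in IP1, 0.122%, 0.122% and 0.174% in IP2 to IP4, and 0.358% and 0.470% in IS1 and IS2. For 7 of the 10 members (Fos, Fosb, Fosl2, Junb, Jund, Atf3 and Maff) the 3 highest mice were IP1, IS1 and IS2, an order met by 4.80% of 12378 genes. The IP group was therefore not uniform, and IP1 is given on its own beside IP2 to IP4. For these members IP1 shared the 3 highest places with the IS mice, which did not always lie close to it. IS2 was nearer to DMSO1 than to IP1 for Jund (68.1 CPM against 54.9 and 210) and Maff (2.04 against 1.56 and 7.71). For Atf3, IS1 at 644 CPM was nearer to IP4 (559) than to IP1 (1159). The label of IP1 was taken as given, and whether that label is right was not tested.

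**Figure D1:**
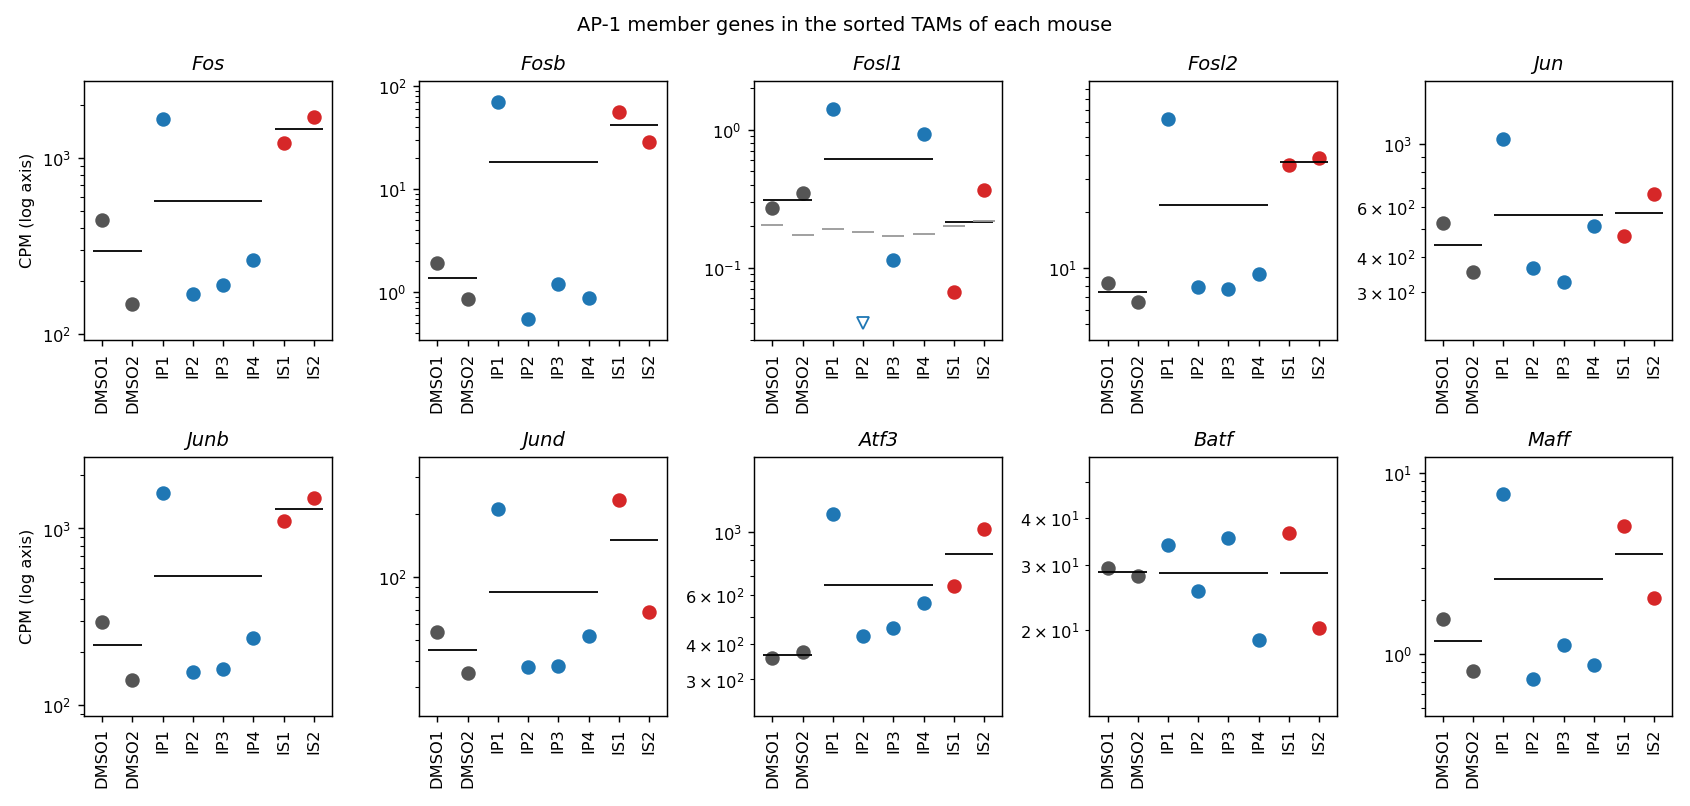
Level of each AP-1 member (CPM, log axis) in the TAMs of each mouse, with 1 point per mouse, DMSO in grey, IP in blue and IS in red. Black bars are group means. In the Fosl1 panel dashed grey marks are the floor of 3 counts and the open triangle is a count of 0. IP1 lies with the IS mice, away from IP2 to IP4, for Fos, Fosb, Fosl2 and Junb. For Jund and Maff it lies with IS1, while IS2 is nearer to DMSO1.

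In the DMSO mice, levels per kb of exon ran from Atf3 at 170 CPM per kb (166 to 175 in the 2 mice), Jun at 138 (110 to 165), Fos at 126 (62.8 to 189) and Junb at 94.9 (60.8 to 129) down to Jund at 27.0 and Batf at 20.4. Fosl2 at 0.769, Maff at 0.456, Fosb at 0.221 and Fosl1 at 0.151 CPM per kb were the low members. Neighbors in this order whose DMSO values overlapped were Jun with Fos, Fos with Junb, and Fosb with Fosl1. TAMs of DMSO mice thus held Jun, Junb, Fos and Atf3 as their main AP-1 transcripts, on the scale of level per exon length.

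In IS mice 6 of the 9 members tested were called higher than in DMSO mice and 0 lower, where 2.29% of all 11680 genes were called higher and 2.77% lower (5.06% in either direction). They were Fos, Fosb and Fosl2 of the FOS subfamily, Junb and Jund of the JUN subfamily, and Atf3. A gene is called here by the study's criterion, a change of 2-fold or more with an unadjusted P under 0.05, which 5.41% of genes passed by P alone. By edgeR's quasi-likelihood test 0.00% of genes, and 0 members, had an adjusted p under 0.05, while the likelihood ratio test and DESeq2 each passed 4 members (Fos, Fosb, Fosl2 and Junb). Of all 11680 genes, the likelihood ratio test passed 179 at that level and DESeq2 passed 107. Library size as the only scaling moved the median log2 fold change of all genes from 0.02 to -0.13 and the split of calls from 268 higher and 323 lower to 196 and 429. With that scaling 5 members were called higher, and Jund was not. Both IS mice lay above both DMSO mice for 7 members (the 6 and Maff), against 17.1% of all genes, and below them for 0 members, against 17.2%. The median log2 fold change of the 9 members was 1.71, and that of all genes 0.02.

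Fos, whose protein needs a JUN partner to bind DNA, lies at chr12:85473890-85477273 on GRCm38 (+ strand, GENCODE vM21). It was at 444 and 148 CPM in DMSO1 and DMSO2, at 1664 in IP1, at 169, 189 and 264 in IP2 to IP4, and at 1223 and 1719 in IS1 and IS2. Both IS mice and IP1 lay above both DMSO mice, and IP2 to IP4 lay between the DMSO mice. The DMSO mice themselves differed 3.01-fold. Against DMSO, Fos rose 4.89-fold in IS mice (log2 fold change 2.29, standard error 0.58, edgeR adjusted p = 0.747). Without DMSO1 the IS value was 3.28 and without DMSO2 1.70 on the log2 scale, both called. The call was lost with all 3 groups in 1 fit (2.31). In IP mice the log2 fold change was 0.93 with a standard error of 0.97 (edgeR adjusted p = 0.980), and it was -0.51 with a standard error of 0.41 without IP1 (edgeR adjusted p = 0.999).

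Fosb encodes a partner of JUN that is scarce in resting cells, at chr7:19302696-19310051 (- strand). It was at 1.90 and 0.861 CPM in the DMSO mice, from 28 and 15 counts. IP1 held 69.5 CPM (1091 counts), the other IP mice 0.547, 1.19 and 0.875 CPM (9, 21 and 15 counts), and the IS mice 55.7 and 28.5 CPM (828 and 392 counts). Fosb made the largest change of any member, 29.9-fold in IS mice (log2 fold change 4.90, standard error 0.69, edgeR adjusted p = 0.563), with rank 10 by P among the 11680 genes tested. Without DMSO1 it was 5.56 on the log2 scale, and still called, while the call was lost with all 3 groups in 1 fit (4.93). Its value in IP mice, 3.69 with a standard error of 2.11 on the log2 scale (edgeR adjusted p = 0.980), fell to -0.65 with a standard error of 0.68 once IP1 was left out.

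Fosl2, which encodes FRA-2, lies at chr5:32135801-32157842 (+ strand). DMSO mice held 8.28 and 6.60 CPM, IP1 62.3, IP2 to IP4 7.90, 7.73 and 9.28, and IS mice 35.5 and 38.7. The IS mice were close to each other, IP1 lay above both, and IP2 to IP4 stayed near the DMSO mice. The rise in IS mice was 4.89-fold (log2 fold change 2.29, standard error 0.43, edgeR adjusted p = 0.747). IP mice gave 1.53 with a standard error of 0.92 (edgeR adjusted p = 0.980), and 0.16 with a standard error of 0.29 without IP1.

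Fosl1, which encodes FRA-1 (chr19:5447547-5455946, + strand), was near the floor. The counts were 4 and 6 in DMSO mice, 22, 0, 2 and 16 in IP1 to IP4, and 1 and 5 in IS mice, too few for the test of IS against DMSO. On the opposite strand it overlaps Ccdc85b, which held 7.94 to 27.0 CPM, and whether the counting used strand is not stated.

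Jun encodes the founding member of the family (chr4:95049034-95052222, - strand). It was at 527 and 352 CPM in DMSO mice, 1048 in IP1, 364, 324 and 513 in IP2 to IP4, and 475 and 665 in the IS mice. The IS mice overlapped the DMSO mice, and IP1 alone was high, at 2.38 times the DMSO mean. Neither route passed the test, with log2 fold changes of 0.35 (standard error 0.36, edgeR adjusted p = 0.9999) in IS and 0.34 (standard error 0.47, edgeR adjusted p = 0.980) in IP mice.

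Junb, often a weaker activator than Jun and a competitor for its partners, lies at chr8:84974484-84978718 (- strand). Its levels were 297 and 140 CPM in DMSO mice, 1590 in IP1, 155, 161 and 239 in IP2 to IP4, and 1104 and 1478 in IS mice. The order of the mice was close to that of Fos. Junb rose 5.82-fold in IS mice (log2 fold change 2.54, standard error 0.47, edgeR adjusted p = 0.747), and its log2 fold change in IP mice was 1.28 with a standard error of 0.99, or -0.24 with a standard error of 0.34 without IP1. Without DMSO1 the IS value was 3.17, and without DMSO2 2.09. At its 3' end Junb overlaps Prdx2 on the other strand, which stayed between 152 and 262 CPM.

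Jund, the JUN gene that most cells keep on (chr8:70698949-70700616, + strand), was at 54.9 and 35.1 CPM in DMSO mice, 210 in IP1 and 37.2, 37.9 and 52.6 in IP2 to IP4. The IS mice were unlike each other, with 233 CPM in IS1 and 68.1 in IS2. Both were above the DMSO mice, and Jund rose 3.28-fold (log2 fold change 1.71, standard error 0.63, edgeR adjusted p = 0.869). This call was lost without DMSO2 (log2 fold change 1.41), without IS1 (0.57), with library size as the only scaling (1.57) and with all 3 groups in 1 fit (1.74).

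Atf3, a bZIP gene of stress responses whose protein restrains inflammatory genes in macrophages, lies at chr1:191170296-191218039 (- strand). DMSO mice held 357 and 376 CPM, which differ 1.05-fold. IP1 held 1159 CPM, IP2 to IP4 428, 458 and 559, and IS mice 644 and 1030. Atf3 was the one member for which all 6 treated mice lay above both DMSO mice. It rose 2.25-fold in IS mice (log2 fold change 1.17, standard error 0.35, edgeR adjusted p = 0.747), a call lost without DMSO1 (log2 fold change 1.12), without DMSO2 (1.2) and without IS2 (0.75). Against DMSO the IP mice gave 0.82 on the log2 scale, with a standard error of 0.41 (edgeR adjusted p = 0.980), and IP2 to IP4 alone gave 0.39 with a standard error of 0.21 (edgeR adjusted p = 0.999), neither past the test.

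Jun, Jund and Atf3 overlap Junos, Gm11175 and Gm24748 on the opposite strand, which were not analysed here.

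Batf, a partner of JUN proteins known from lymphocytes and dendritic cells (chr12:85686669-85709087, + strand), is 209 kb from Fos on the same strand. It did not share the pattern of Fos, with 29.4 and 28.0 CPM in DMSO mice, 33.9, 25.5, 35.3 and 18.8 in IP1 to IP4, and 36.5 and 20.3 in IS mice. IP and IS mice lay on both sides of the DMSO mice. Its log2 fold changes were -0.04 (standard error 0.44, edgeR adjusted p = 0.9999) in IS and -0.02 (standard error 0.30, edgeR adjusted p = 0.994) in IP mice.

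Maff, a small MAF gene (chr15:79346621-79359076, + strand), was low, at 1.56 and 0.804 CPM in DMSO mice, 7.71 in IP1, 0.730, 1.13 and 0.875 in IP2 to IP4, and 5.11 and 2.04 in the IS mice. Both IS mice lay above the DMSO mice, but the log2 fold change of 1.56 had a standard error of 1.04 (edgeR adjusted p = 0.9999). In IP mice it was 1.12 with a standard error of 1.09, or -0.36 with a standard error of 0.64 without IP1.

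In IP against DMSO, 0 of 10 members were called, where 1.53% of 12174 genes were called higher and 0.468% lower (2.0% in all), 3.43% had an unadjusted P under 0.05 and 0.00% an adjusted p under 0.05. By edgeR's quasi-likelihood test 0 members had an unadjusted P under 0.05 either. DESeq2 gave no P for Fos, Fosb and Junb and called 0 of the other 7. The likelihood ratio test called Fosb, with 2.89% of all genes called in either direction. The fit with the replicate block called Fosl2, with 2.46% of all genes called. All 4 IP mice lay above both DMSO mice for 1 member (Atf3), against 7.32% of genes, and below them for 0, against 6.83%. The members' median log2 fold change was 0.94 with IP1 and -0.13 without it. Without IP1, 9 members could be tested and 0 were called, against 197 of all 12010 genes (1.64%).

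**Figure D2:**
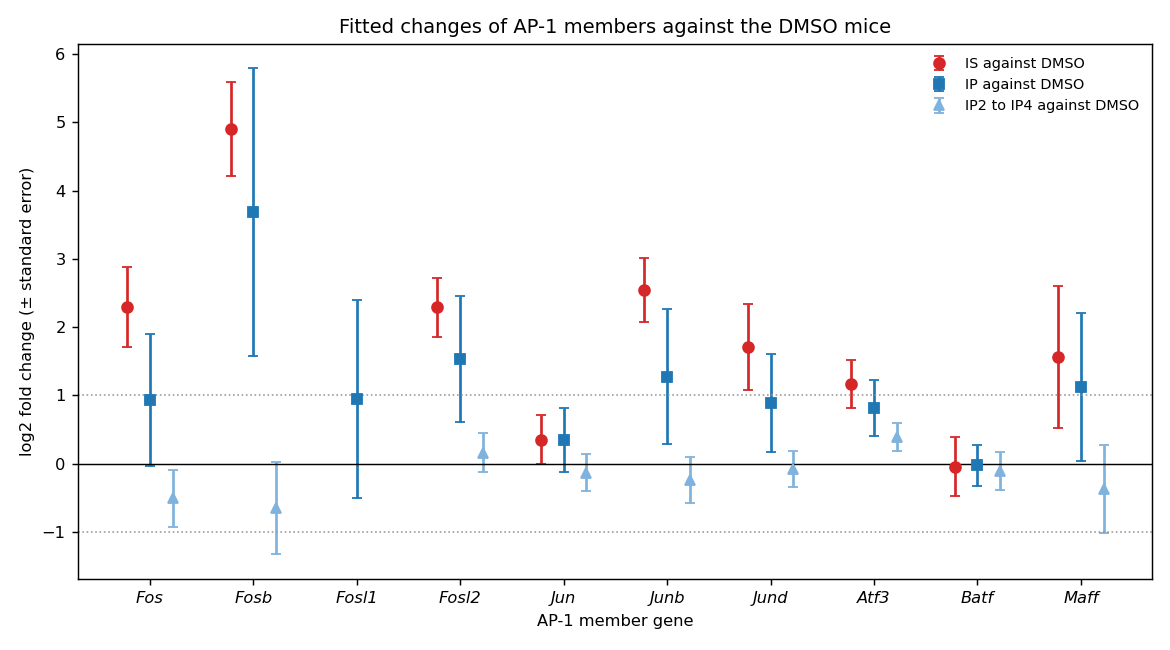
Fitted log2 fold change of each AP-1 member against the DMSO mice, with the standard error as bars, for IS mice (red circles), all 4 IP mice (blue squares) and IP2 to IP4 (light triangles). All 3 series share the 2 DMSO mice. Dotted lines mark a 2-fold change. The IP values of Fos, Fosb, Jun, Junb, Jund and Maff cross 0 when IP1 is left out.

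Between the routes, 0 of 10 members were called in IS against IP, where 2.41% of 12206 genes were called higher and 4.64% lower (7.05% in all), 8.59% had an unadjusted P under 0.05 and 0.00% an adjusted p under 0.05. Of the members 0 had an unadjusted P under 0.05 by edgeR's quasi-likelihood test, and DESeq2 gave no P for Fos, Fosb and Junb and called 0 of the other 7. The IS mice did not clear the 4 IP mice for any member, while 8.05% of genes lay wholly above and 10.5% wholly below. IP1 held more than both IS mice for 7 members (Fosb, Fosl1, Fosl2, Jun, Junb, Atf3 and Maff). For Fosl1 this rested on 22 counts against 1 and 5. The share of all genes for which IP1 did so is not at hand, so this count is a description only. Without IP1, 6 members were called higher in IS mice, Fos (log2 fold change 2.83), Fosb (5.58), Fosl2 (2.16), Junb (2.80), Jund (1.82) and Maff (1.96), with an edgeR adjusted p of 0.0524 for Fos, Fosb and Junb. In that fit 3.12% of all 11989 genes were called higher (7.69% in either direction). The result of IS against IP thus turned on whether IP1 was counted. IP1 had been singled out for its high AP-1 values, and leaving it out lowers the mean and spread of those IP values. The calls without IP1 are therefore a description, not a test of the routes. Dose also differed with route. The 3 comparisons share mice, so they are not independent of each other.

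Ratios between members within a library also set IP1 and the IS mice apart. There were 0.843 and 0.419 Fos counts for each Jun count in DMSO1 and DMSO2, 1.59 in IP1, 0.465, 0.584 and 0.514 in IP2 to IP4, and 2.58 and 2.59 in IS1 and IS2. For Junb the ratios to Jun were 0.564 and 0.397 in DMSO mice, 1.52 in IP1, 0.425, 0.497 and 0.466 in IP2 to IP4, and 2.33 and 2.22 in IS mice. Both ratios put the IS mice highest and IP1 next, and neither depends on the scaling between libraries. They are given as values, with no test. Fosb counts per Fos count were 0.00428 and 0.00583 in DMSO mice, 0.0418 in IP1 and 0.0455 and 0.0166 in IS mice.

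**Figure D3:**
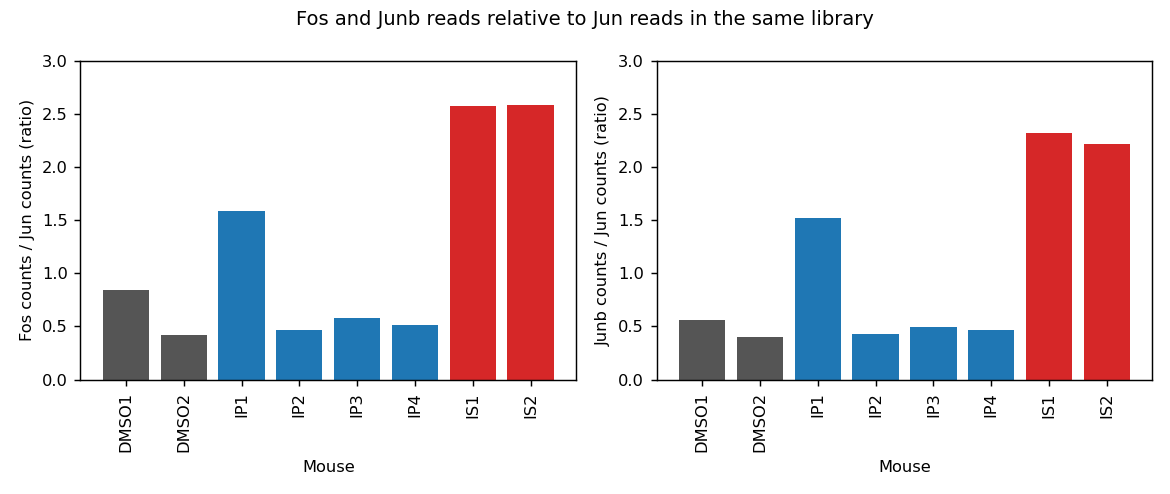
Fos counts (left) and Junb counts (right) divided by Jun counts in the same library, 1 bar per mouse, with no error bar because each is 1 library. IS1 and IS2 stand at 2.58 and 2.59 for Fos, IP1 at 1.59, and the other 5 mice under 0.85.

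For the lists from here on, the matching shares of all genes called higher and lower were 2.29% and 2.77% in IS against DMSO. They were 1.53% and 0.468% in IP against DMSO, and 2.41% and 4.64% in IS against IP. The median log2 fold change of all genes was 0.02 in each comparison. Of 20 other bZIP partners, 1 was called higher and 0 lower in IS mice, with a median log2 fold change of 0.35. It was Crem, an immediate-early repressor of cAMP signaling in its ICER form, at 25.8 and 23.3 CPM in DMSO, 21.5, 21.1, 24.5 and 18 in IP1 to IP4, and 38.5 and 87.1 in IS mice (log2 fold change 1.33, standard error 0.49, edgeR adjusted p = 0.869). Jdp2 and Ddit3 were called higher in IP mice, and for both IP2 to IP4 shared the direction of IP1. Jdp2, which encodes a JUN partner that represses AP-1 sites, was at 29.6 and 31.3 CPM in DMSO mice, 119, 55.5, 57.2 and 64.5 in IP1 to IP4, and 58.1 and 46.1 in IS mice (log2 fold change 1.27 in IP, standard error 0.36, edgeR adjusted p = 0.980). Ddit3, the stress factor CHOP, went from 42.6 and 36.4 CPM to 120, 65.4, 78.3 and 98.6 in IP mice (log2 fold change 1.19, edgeR adjusted p = 0.980), with 54.9 and 45.7 in IS mice. In IS against IP, 1 of the list (Crem) was called higher and 0 lower.

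Kinases upstream of AP-1 and the factors at the FOS and JUN promoters gave no call. Of 20 genes of the MAP kinase cascade, 0 were called in any of the 3 comparisons, with medians of 0.16 in IS, 0.03 in IP and 0.10 in IS against IP on the log2 scale, and 0, 0 and 1 had an unadjusted P under 0.05. That 1 was Map3k8, the kinase TPL2, at 80.0 and 35.5 CPM in DMSO, 79.8, 46.0, 46.6 and 65.0 in IP and 108 and 104 in IS mice, a log2 fold change of 0.83 (edgeR adjusted p = 0.495) between the routes. Map2k1, encoding MEK1, was at 147 and 147 CPM in DMSO, 129 to 143 in IP and 149 and 231 in IS mice. Of 9 promoter-bound factors, 0 were called. Mef2c, a MADS-box factor that acts on Jun, was at 78.6 and 84.2 CPM in DMSO and at 37.6 to 53.7 in IP mice, below 2-fold in the fit (log2 fold change -0.85, standard error 0.23, edgeR adjusted p = 0.980), and at 27.8 and 103 in IS mice. Mkl1, an actin-regulated partner of SRF, was at 9.36 and 10.5 CPM in DMSO, 12.5 to 25.4 in IP and 14.9 and 14.7 in IS mice.

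Genes that textbooks give as AP-1 targets, a list of 20 of which 18 were tested against DMSO, moved both ways. In IS mice 5 were called higher (2.29% of all genes) and 2, Ccnd1 and Plau, lower (2.77% of all genes), with a median log2 fold change of 0.58. Beside the 3 given next, the higher ones were Plaur, the urokinase receptor (1.24), and Serpinb2, a urokinase inhibitor (2.84). Il1b, the cytokine IL-1 beta, was at 6.92 and 8.96 CPM in DMSO mice, 228 in IP1, 5.05, 7.73 and 0.992 in IP2 to IP4, and 252 and 381 in IS mice (log2 fold change 5.29 in IS, standard error 0.43, edgeR adjusted p = 0.151). Tnf was at 41.1 and 25.4 CPM in DMSO, 220 in IP1, 26.3, 54.0 and 96.1 in IP2 to IP4, and 125 and 117 in IS mice (log2 fold change 1.84, edgeR adjusted p = 0.747). Vegfa, an angiogenic factor, rose from 41.3 and 28.5 to 106 and 112 CPM in IS mice (log2 fold change 1.61, edgeR adjusted p = 0.747), with 78.6 in IP1. Ptgs2, the inducible cyclooxygenase, was high in IS2 alone, at 346 CPM, against 31.6 in IS1, 8.51 to 21.9 in IP mice and 40.4 and 7.52 in DMSO mice, and was called in IS against IP (log2 fold change 3.68, edgeR adjusted p = 0.268). In IP mice 0 were called higher and 1, Serpinb2, lower (median -0.16), and in IS against IP 4 of 19 were called higher (Ptgs2, Serpinb2, Vegfa and Mmp13) and 0 lower (median 0.63).

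Of 14 genes that limit AP-1 through its mRNAs, its proteins or the kinases above it, 6 were called higher in IS mice (2.29% of all genes). Called lower was 1, Dusp6 (2.77% of all genes), and the median log2 fold change was 1.13. Dusp4 (1.95) and Trib1 (1.62) were among the higher ones. Zfp36 encodes tristetraprolin, which speeds the decay of mRNAs with AU-rich ends, those of Fos and Tnf among them. It was at 154 and 131 CPM in DMSO, 463 in IP1, 115, 122 and 136 in IP2 to IP4, and 555 and 587 in IS mice (log2 fold change 1.98, standard error 0.30, edgeR adjusted p = 0.652). Dusp1, a phosphatase of p38 and JNK, was at 525 and 186 CPM in DMSO, 1716 in IP1, 320, 245 and 581 in IP2 to IP4, and 2326 and 2517 in IS mice (log2 fold change 2.74, standard error 0.55, edgeR adjusted p = 0.747). Dusp2, at 3.46 and 7.58 CPM in DMSO and 96.1 and 68.9 in IS mice, and Dusp5, at 1.09 and 2.47 in DMSO and 23.7 and 17.5 in IS mice, are phosphatases of nuclear MAP kinases and had log2 fold changes of 3.87 and 3.50 (edgeR adjusted p = 0.563 and 0.747). In IP mice 0 of the 14 were called in either direction (median 0.55), although IP1 held 97.0 CPM of Dusp2 and 12.8 of Dusp5. In IS against IP, 3 were called higher (Dusp1, Dusp5 and Zfp36) and 0 lower.

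Early genes that digestion and sorting of tissue often raise were higher in the same mice, and their part in the result was not tested. On this list of 20, 11 were called higher and 0 lower in IS against DMSO (2.29% and 2.77% of all genes). The median log2 fold change of the list was 1.10. The 11 were Nr4a1, Nfkbiz, Egr1, Egr2, Klf2, Klf4, Klf6, Ier2, Ier5, Btg2 and Socs3, all early regulators. No heat shock gene was called there. Even so, both IS mice lay above both DMSO mice for Hspa8, Dnaja1 and Dnajb1, as for 17.1% of all genes. Their log2 fold changes were 0.29, 0.67 and 0.91, and Dnajb1 had an unadjusted quasi-likelihood P of 0.030. The other heat shock genes overlapped. The summed level of the list was 5683 and 4677 CPM in DMSO1 and DMSO2, 7083 in IP1, 4501, 4159 and 4743 in IP2 to IP4, and 7916 and 9280 in IS mice. Hspa8, a heat shock gene, was the largest part of that sum in every mouse, at 2318 and 1763 CPM in DMSO mice. Nr4a1, an early nuclear receptor, was at 7.73 and 6.14 CPM in DMSO, 165 in IP1, 6.75, 5.02 and 15.2 in IP2 to IP4, and 263 and 273 in IS mice (log2 fold change 5.25, standard error 0.36, edgeR adjusted p = 0.131). Nfkbiz, an early NF-kB cofactor, was at 19.7 and 14 CPM in DMSO, 198 in IP1, 11.4, 21.5 and 33.0 in IP2 to IP4, and 77.9 and 234 in IS mice (log2 fold change 3.19, edgeR adjusted p = 0.747).

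Among the heat shock genes of that list, Hspa1a, its near copy Hspa1b, Hspa8 and Dnaja1 were below both DMSO mice in IP1. Dnajb1 was above both, Hsp90aa1 lay between them, and Hsp90ab1 was just above the higher one (779 against 778 CPM). Hspa8 was at 1478 CPM in IP1, 2318 and 1763 in DMSO mice and 2491 and 2570 in IS mice. Dnaja1 was at 172 CPM in IP1, 206 and 226 in DMSO mice and 349 and 352 in IS mice. Hspa1a was at 374 and 222 CPM in DMSO mice, 114 in IP1, 171, 60.9 and 157 in IP2 to IP4, and 293 and 705 in IS mice. All 4 IP mice were below both DMSO mice, and the gene was called lower in IP mice (log2 fold change -1.25, standard error 0.40, edgeR adjusted p = 0.980). Hspa1b, with which reads can be shared, had 485 and 217 CPM in DMSO mice, 58.0 in IP1, 150, 44.4 and 121 in IP2 to IP4, and 377 and 855 in IS mice (log2 fold change -1.91 in IP, edgeR adjusted p = 0.980). IP1 thus held high AP-1 and low Hspa1a and Hspa1b, unlike the IS mice. Dnajb1, which encodes a co-chaperone of HSP70, was at 48.8 and 41.5 CPM in DMSO mice, 93.6 in IP1, 39.9, 39.4 and 50.1 in IP2 to IP4, and 82.9 and 89.1 in IS mice, so that IP1 lay with the IS mice, and it was not called in any comparison. In IP against DMSO, 0 of the 20 early genes were called higher and these 2 were called lower (median 0.71), and in IS against IP 4 were called higher (Hspa1a, Hspa1b, Dnaja1 and Egr2) and 0 lower.

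**Figure D4:**
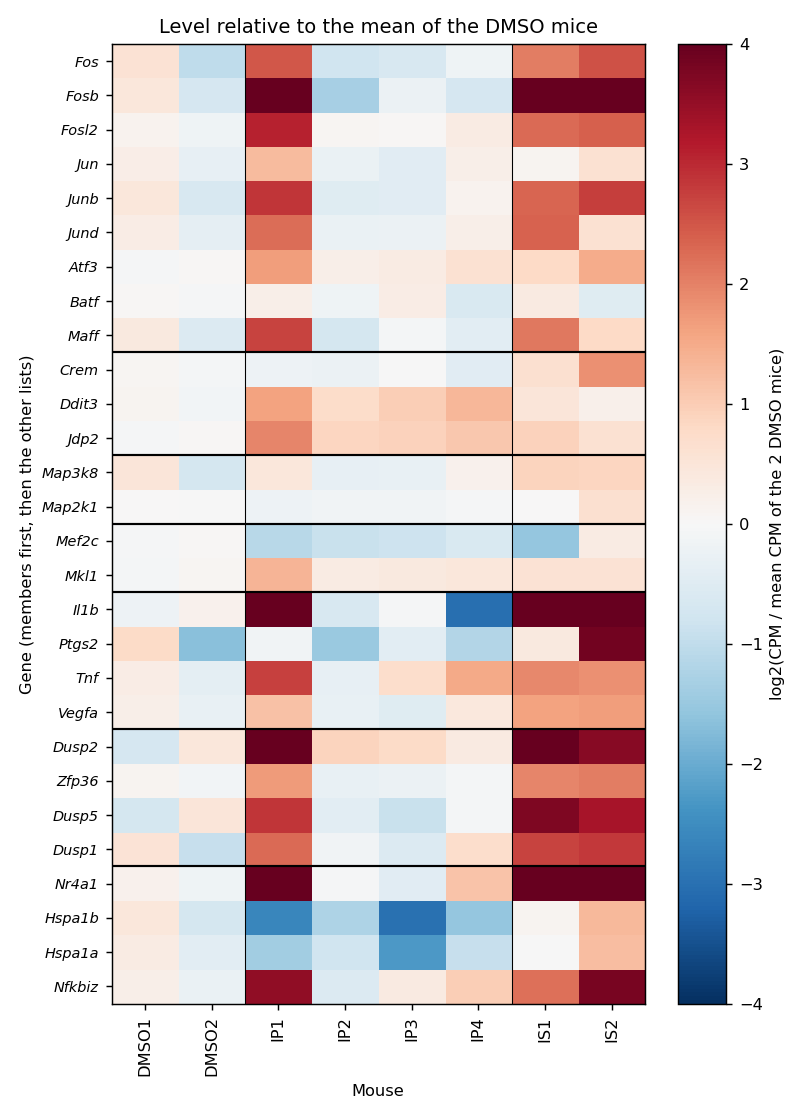
Level of 9 AP-1 members and the 19 named genes of the other lists in each mouse, as the log2 ratio to the mean CPM of the 2 DMSO mice (red higher, blue lower, with the color scale ending at 4 in either direction). Black lines separate the members and the lists in the order of the text. The columns of IP1, IS1 and IS2 are red for Fos, Fosb, Fosl2 and Junb, and Hspa1b and Hspa1a are blue in IP1. Fosl1 is left out, with 0 to 22 counts.

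Among 9320 other genes averaging 5 CPM or more, those most like Fos over the 8 mice were Btg2, Dusp1 and Rgcc, with a root mean square difference of 0.328, 0.362 and 0.468 between centered log2 CPM. The same 3 were nearest to Junb, at 0.313, 0.358 and 0.388, while Fos and Junb were nearer still to each other, at 0.154. Btg2 held 46.3 and 22.9 CPM in DMSO mice, 204 in IP1, 25.1, 27.5 and 44.1 in IP2 to IP4, and 97.6 and 217 in IS mice. Nearest to Jun were Arhgap21, Cnppd1 and Sde2 (0.132, 0.156 and 0.167), and nearest to Atf3 were Pcf11, Ier5 and Kansl1l (0.0582, 0.138 and 0.139). A gene that moves little has a small difference from Jun and Atf3 more easily than from Fos, so these distances are not compared between members.

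Markers of other cells were higher in the IS mice for some lists, and their part in the AP-1 result was not tested. Neutrophil markers, 11 of 12 on the list, summed to 186 and 193 CPM in DMSO mice, 133 to 186 in IP mice and 294 and 527 in IS mice. All 11 were detected in DMSO1, IP1, IS1 and IS2, while Camp and Mpo, granule genes, were at 0 counts in DMSO2 and IP2 to IP4. In IP1, IS1 and IS2 the 8 markers other than Cxcr2, Csf3r and Mmp8 were each above both DMSO mice. This split follows the values in IP1, so for IP1 it holds by choice. The share of all genes above both DMSO mice in IP1 is not at hand. Cxcr2, Csf3r and Mmp8 summed to 180 and 180 CPM in DMSO mice, 149 in IP1 and 262 and 265 in IS mice. The 8 summed to 6.10 and 13.5 CPM in DMSO mice, 36.9 in IP1, 4.62, 17.4 and 4.03 in IP2 to IP4, and 31.9 and 261 in IS mice. These 8, so chosen, but not the whole list, were higher in the mice with high AP-1. In IP1 Mmp8 was at 24.2 CPM, below both DMSO mice (60.5 and 58.5), and Cxcr2 and Csf3r lay between the DMSO mice. Some of the 8 rested on few counts in IP1, with 6 each for Camp and Elane against 5 each in DMSO1. IP3, a mouse with low AP-1, was above both DMSO mice for 3 of the 8. S100a8, for one, was at 2.31 and 6.14 CPM in DMSO mice, 21.2 in IP1, 6.46 in IS1 and 64.7 in IS2. Monocyte markers summed to 325 CPM in IP1, of which Chi3l3 gave 289.6. The other 5 summed to 35.7 CPM in IP1, 10.4, 27.1 and 25.3 in IP2 to IP4, 69.7 and 90.4 in DMSO mice and 97.6 and 127 in IS mice. Ccr2 led that sum in DMSO mice, and it was at 12.7 CPM in IP1 against 59.9 and 79.2 in DMSO mice. Yet 3 of those 5 were above both DMSO mice in IP1 (Ly6c2, Plac8 and Vcan). The same count was 3 in IS1 and IS2, 2 in IP3 and 0 in IP2 and IP4. Markers of T, NK and B cells summed to 59.3 and 31.5 CPM in IS mice and 1.16 to 17.5 elsewhere, with 2 to 10 of 13 at 0 counts in a mouse, and those of dendritic cells to 30.5 and 9.39 in IS mice and 1.89 to 7.73 elsewhere. Melanoma markers ran from 461 to 2986 CPM, highest in IS1, and those of fibroblasts and endothelium from 1.14 to 9.33.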

How the data were processed

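RNA-seq counts of TAMs from 8 mice were used, 1 library per mouse, grouped by the agent and mouse names in the labels. The authors deposited whole-number counts per gene symbol, not normalized. The methods name bowtie2 and RSEM on mm10, while the submitters' processing notes name TopHat2, edgeR and mm10. The counting strand is not stated.

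The analysis used edgeR 4.0.16 and limma 3.58.1 in R 4.3.3. Genes were kept by filterByExpr (minimum count 10, minimum total 15), scaled by TMM, and each pair of groups was fitted alone and compared over all genes by the two-sided quasi-likelihood test, with Benjamini-Hochberg adjustment. Genes with a 2-fold or larger change and an unadjusted P under 0.05 were called, as in the study. Log2 CPM used a prior count of 2. Promoters were read from RefSeq and positions from GENCODE vM21. The procedure was tested on simulated data.

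Members and lists were chosen with earlier results of these data known. From each other list, at most 4 genes called in any comparison with a mean of at least 5 CPM were named, those of smallest P first, or the 2 of smallest P where none was called. The other called genes of the lists were named beside their counts after their values were seen. A result of the lists is not reported here. Alternatives were DESeq2 1.42.0, the likelihood ratio test of edgeR, RLE or library-size scaling, no filter or one of 1 CPM in 2 samples, a single fit of all 3 groups, a replicate block and the omission of each mouse. A crossed replicate block was added after seeing the data.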

Additional observations from a re-analysis of the deposited data

Results flagged for a closer look

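In the IP group, IP1 stood apart from the other 3 mice for 6 of the 10 members, on the high side each time, as it did on that side for 4.29% of all 12174 genes tested in IP against DMSO (5.80% on either side). Its gap to the nearest IP mouse, as a share of the range of the group, was above Dixon's limit for 4 samples. Chance exceeds that limit in about 1 of 20 groups of normal values, and CPM need not be normal. IP1 had been set apart for these same values, so the gaps describe it and do not test it. On either side, IP2, IP3 and IP4 passed the limit for 0.517%, 0.862% and 1.48% of all genes. The members share the mouse, so the 6 are not separate events. IP1 held 1664 CPM of Fos (gap of 0.936 of the range), 69.5 CPM of Fosb (0.991), 62.3 CPM of Fosl2 (0.972), 1590 CPM of Junb (0.941), 210 CPM of Jund (0.910) and 7.71 CPM of Maff (0.943). Jun at 1048 CPM and Atf3 at 1159 CPM were also highest in IP1 of the IP mice, but their gaps did not pass the limit. For Fos, Fosb, Fosl2 and Junb IP1 lay with the IS mice, and for Jund and Maff with IS1. In IP1, Hspa1a, Hspa1b and Ccr2 were below both DMSO mice, as in IP2 to IP4. All 4 IP mice were below both DMSO mice for 6.83% of all genes. The label of IP1 was taken as given, and neither the label nor any other cause was tested. The groups of 2 mice are too small for this comparison.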

How the results depend on the processing

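With 2 DMSO mice per comparison the spread of the controls is poorly known, and P values measure the spread between these mice only. In IP against DMSO, 0 members were called, and 1 under the likelihood ratio test (Fosb) and 1 with the replicate block (Fosl2). Those 2 fits called 2.89% and 2.46% of all genes. In IS against DMSO, 6 were called, 3 with all 3 groups in 1 fit (Atf3, Fosl2 and Junb), 5 with library size only, 6 with the replicate block and 6 with the crossed one, and 4 to 6 when each mouse was left out. At an adjusted p under 0.05 the likelihood ratio test and DESeq2 each passed 4 members there (Fos, Fosb, Fosl2 and Junb), of 179 and 107 genes in all. The replicate block passed Fosb and Junb, of 19 genes, and no gene filter Fosb, of 10 genes. The crossed block and the other fits with 2 or more mice in each group passed 0 members. Same-numbered mice did not deviate together (r of -0.12, -0.19 and 0.12), so the numbers were not taken as pairs. In IS against IP the count was 0, and 0 to 6 when each mouse was left out, 6 without IP1.

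Directions turned for small effects. Batf became 0.025 in IP with the replicate block, Jun -0.060 and Batf -0.090 in IS against IP with library size only, and Jun -0.16 and Batf -0.13 with the replicate block there. With each mouse left out in turn, log2 fold changes in IP ran from -0.51 to 1.95 for Fos, -0.65 to 4.37 for Fosb, -0.13 to 0.67 for Jun, -0.24 to 1.93 for Junb, -0.077 to 1.26 for Jund, -0.36 to 1.68 for Maff and -0.15 to 0.13 for Batf, the first 6 being lowest without IP1. In IS they ran from -0.53 to 0.29 for Batf, and in IS against IP from -0.25 to 0.51 for Jun, -0.31 to 1.82 for Jund, -0.019 to 0.80 for Atf3, -0.48 to 0.36 for Batf and -0.35 to 1.96 for Maff. Over all genes, 591 were called in IS against DMSO, and 113 to 3432 when each mouse was left out. Without an IS mouse that arm had 1 sample, which was assumed to vary like the DMSO mice. The cause of these changes was not tested.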
